A study of Saccharomyces cerevisiae with 18 samples.

Results

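The 39 genes described here encode subunits of SAGA and Mediator, the large transcription coactivator complexes of budding yeast. They were taken by systematic name from a fixed list, 14 for SAGA without the TAFs it shares with TFIID and 25 for the head, middle, tail and kinase modules of Mediator. All 39 were found among the 6465 Saccharomyces cerevisiae gene windows counted. The assay was SLAM-seq, in which cells take up 4-thiouracil (4tU), the RNA is alkylated, and sites that took up the label appear as T-to-C changes in 3′ mRNA-seq reads. Labelled S. pombe cells were mixed in at a fixed mass ratio, so that each library carries a common standard.

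The 18 libraries form 6 groups of 3 separate cultures. RDY73 with IAA received 1 mM of the auxin IAA for 25 min and then 5 mM 4tU for 4 min, RDY73 with DMSO received 4tU without IAA, and the RDY73 control received neither. RDY234 had the same 3 groups. Both strains carry OsTIR1 under the GPD1 promoter with a HIS3 marker (pGPD1-OsTIR1::HIS3) and degron-tagged copies of both BET-family bromodomain genes (BDF2-3XV5-mAID-kanMX and BDF1-3XV5-mAID-URA3), so that IAA can direct degradation of Bdf1 and Bdf2. RDY234 also carries an untagged BDF1 under its own promoter (pBDF1-BDF1::TRP1), and so models the loss of Bdf2 with Bdf1 retained. Cells grew in YPD at 30 °C, and each strain is a single construct with no second isolate in the design. Protein levels were not part of these files.

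SAGA acetylates histone H3 through Gcn5, removes ubiquitin from histone H2B through Ubp8, delivers the TATA-binding protein (TBP) through Spt3 and Spt8, and contacts activators through Tra1. Mediator joins activators bound by its tail to RNA polymerase II, which its head and middle modules engage, and its kinase module associates reversibly. Bdf1 is known as a partner of TFIID, the other main route for TBP to promoters.

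Each library held between 4177363 and 8541751 S. cerevisiae reads and between 387855 and 792178 S. pombe reads. A read was counted as labelled, or as new RNA, when it held 2 or more such conversions. Labelled reads numbered 103348 to 574103 per library with 4tU and 10590 to 30610 without it. Levels are given as scaled reads, the reads of a gene after every library was set to the same S. pombe sum, of labelled reads for new RNA and of all reads for total RNA. The strain labels were checked with total reads: BDF1 lay between 646 and 795 scaled reads in the 9 RDY73 libraries and between 2067 and 2592 in the 9 RDY234 libraries, and TRP1 between 8.93 and 20.8 in RDY73 and between 287 and 384 in RDY234. The members differ widely in depth, from 226 reads over all libraries for SSN8 to 9837 for TRA1, and labelled reads of single members were few. Counting windows of 11 members overlap another gene's window on the same strand, and those of 19 overlap one on the other strand. The sources used here do not say whether counting used strand.

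The upstream regions of the members with the lowest and the highest new-RNA ratio are shown because those genes bound the range of responses described next. Each run covers 250 to 51 bases before the start codon, read 5′ to 3′ on the gene's strand from the RefSeq R64 sequence, and capitals mark TATAAA on either strand. MED11 (YMR112C) and NUT2 (YPR168W) fell most, and TRA1 (YHR099W) fell least.
MED11, chrXIII:494546-494745, minus strand: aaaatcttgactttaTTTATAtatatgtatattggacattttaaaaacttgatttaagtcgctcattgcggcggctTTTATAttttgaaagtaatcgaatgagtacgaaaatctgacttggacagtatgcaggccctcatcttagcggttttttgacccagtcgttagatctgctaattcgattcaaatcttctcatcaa
NUT2, chrXVI:877826-878025, plus strand: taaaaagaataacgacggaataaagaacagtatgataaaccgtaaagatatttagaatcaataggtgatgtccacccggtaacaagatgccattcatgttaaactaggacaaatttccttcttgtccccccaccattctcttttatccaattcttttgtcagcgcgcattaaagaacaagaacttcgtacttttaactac
TRA1, chrVIII:302511-302710, plus strand: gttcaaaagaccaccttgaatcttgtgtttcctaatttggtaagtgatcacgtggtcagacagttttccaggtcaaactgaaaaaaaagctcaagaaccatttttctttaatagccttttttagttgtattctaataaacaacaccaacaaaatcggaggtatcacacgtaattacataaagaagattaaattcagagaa

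MED11 holds TATAAA on the other strand at 2 positions, and NUT2 and TRA1 hold none in this window. Among all members 15 of 39 (38.46%) have TATAAA on either strand in the window, against 2271 of 5994 genes (37.89%). The Reb1 core TTACCCG, on either strand, lies in 4 members (10.26%), SPT7, SPT20, MED2 and NUT1, against 419 of 5994 genes (6.99%). These are matches of letters in a 200-base window and no evidence of binding.

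New RNA of the coactivator genes fell with IAA in RDY73. Of the 39 members, 37 had enough labelled reads to be tested (at least 10 in at least 3 libraries), and all 37 were lower at an adjusted p below 0.05 by edgeR's quasi-likelihood test with Benjamini-Hochberg adjustment over 5195 genes. The same call was reached by 83.9% of all tested genes, and a higher call by 0.385%, so the count of members is near what the whole transcriptome gave. The median log2 fold change was -2.46 over the 37 members and -1.97 over all tested genes. SRB2 and SSN8, a head and a kinase-module gene, had too few labelled reads. The fit shared its filter and its spread with the RDY234 libraries, and in a fit of the RDY73 groups alone 15 members passed the filter, all 15 lower. Members passed that filter chiefly through the DMSO libraries, where their labelled reads were higher, so those 15 calls add nothing to the main count. Summed over the 39 members, scaled labelled reads were 136, 167 and 123 in the RDY73 IAA libraries, against 608, 798 and 690 in the RDY73 DMSO libraries. Every IAA library lay below every DMSO library for 35 of the 37 members, as for 79.4% of all tested genes, and the exceptions were SRB8 and MED6. Scaling rests on cells mixed by mass, so less RNA per cell and fewer cells per unit of S. pombe cannot be told apart.

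**Figure D1:**
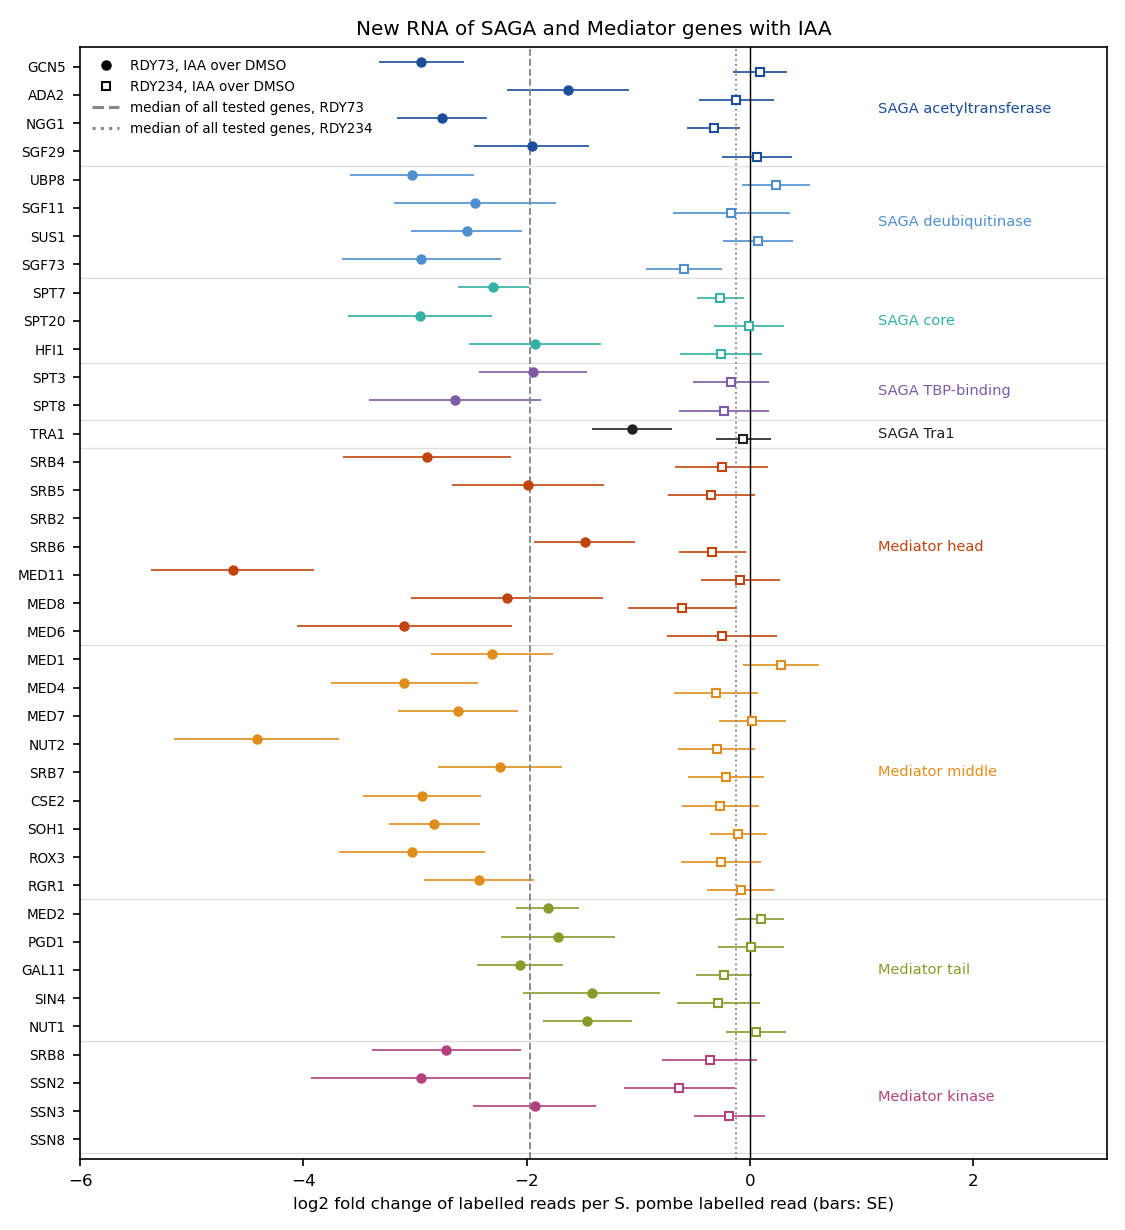
Log2 fold change of new RNA with IAA over DMSO for each member (horizontal axis, bars show SE), with filled circles for RDY73 and open squares for RDY234, grouped and coloured by module. All 37 tested members lie left of 0 in RDY73, from -4.64 for MED11 to -1.05 for TRA1, while RDY234 values lie between -0.63 and 0.28; SRB2 and SSN8 were not tested and have no symbol, and grey lines give the medians of all tested genes.

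Within SAGA all 14 genes fell, with a median of -2.50. The acetyltransferase module had a median of -2.36 over 4 genes. GCN5 (YGR252W, chromosome VII, 996869 to 998188, plus strand), the acetyltransferase itself, had 3.06, 6.69 and 6.09 scaled labelled reads in RDY73 IAA libraries, against 37.9, 48.7 and 41.7 in RDY73 DMSO libraries. All IAA values were far below all DMSO values, and the log2 fold change was -2.94 (SE 0.38, adjusted p = 1.61e-13). NGG1 (YDR176W), which with ADA2 builds the module around Gcn5, had 1.02, 8.36 and 4.35 with IAA, against 27.4, 41.1 and 32.3 with DMSO. It fell by 2.76 on the log2 scale (SE 0.40, adjusted p = 7.62e-11), and SGF29, a reader of methylated histone H3, fell by 1.96. ADA2 (YDR448W) had the smallest fall of the module, with 3.06, 5.85 and 2.61 with IAA against 11.6, 19.8 and 7.29 with DMSO. The ADA2 groups did not overlap, at -1.63 (SE 0.55, adjusted p = 0.00409; 0.06 when scaled to other S. cerevisiae genes, as described further on), but the call was lost without RDY73 DMSO replicate B (-1.25).

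The deubiquitinase genes had the lowest median of the SAGA modules, -2.74 over 4 genes. UBP8 (YMR223W, chromosome XIII, 716715 to 718130, plus strand), the ubiquitin protease, had 0, 4.18 and 1.74 scaled labelled reads with IAA, against 25.3, 7.61 and 18.8 with DMSO. The highest IAA library stayed below the lowest DMSO library, and the gene fell by 3.03 (SE 0.56, adjusted p = 2.39e-07). SGF11 (YPL047W), which activates Ubp8, had 1.02, 2.51 and 1.74 with IAA against 15.8, 9.14 and 6.25 with DMSO. It fell by 2.46 (SE 0.73, adjusted p = 0.00115), the least of the module, and the groups were again separate. SGF73, the anchor of the module, fell by 2.94 and SUS1, shared with the mRNA export complex TREX-2, by 2.54.

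The core scaffold genes SPT7, SPT20 and HFI1 had a median of -2.30. SPT20 (YOL148C) had 0, 1.67 and 2.61 scaled labelled reads with IAA against 7.37, 13.7 and 16.7 with DMSO, and fell by 2.96 (SE 0.64, adjusted p = 1.13e-05). HFI1 (YPL254W) had 1.02, 2.51 and 5.22 with IAA against 9.47, 12.2 and 13.5 with DMSO, and fell by 1.92 (SE 0.59, adjusted p = 0.00175). In both genes the groups were separate. SPT7, with more reads, fell by 2.30 (SE 0.32). Of the TBP-binding pair, SPT8 (YLR055C) had 1.02, 0.836 and 1.74 with IAA against 8.42, 7.61 and 8.34 with DMSO, and SPT3 (YDR392W) had 3.06, 6.69 and 4.35 against 20.0, 21.3 and 15.6. Each library with IAA was below each with DMSO, with log2 fold changes of -2.64 for SPT8 (SE 0.77, adjusted p = 0.000958) and -1.94 for SPT3 (SE 0.49, adjusted p = 0.000127).

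TRA1 (YHR099W, chromosome VIII, 302761 to 313995, plus strand), the activator-binding subunit that SAGA shares with the acetyltransferase complex NuA4, had the smallest fall of all members tested, and a positive value (0.64, not called) when scaled to other S. cerevisiae genes. Its scaled labelled reads were 19.4, 13.4 and 4.35 with IAA, against 20.0, 24.4 and 31.3 with DMSO. IAA replicate A lay just below the lowest DMSO library, while replicate C stood well apart from both. The log2 fold change was -1.05 (SE 0.36, adjusted p = 0.00463), and the call was lost without RDY73 DMSO replicate C (-0.85) or RDY73 IAA replicate C (-0.64).

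All 23 tested Mediator genes fell, with a median of -2.42. The head module, which contacts RNA polymerase II, ranged from -4.64 to -1.48 over 6 genes. MED11 (YMR112C, chromosome XIII, 494100 to 494495, minus strand), the partner of Srb6 in a small helical pair, had 0, 1 and 1 labelled reads with IAA, against 9, 18 and 18 with DMSO. The DMSO libraries held nearly all of its labelled reads. Over the pooled reads the scaled IAA-to-DMSO ratio was 0.0343, with an exact counting interval of 0.00403 to 0.131, and the fitted log2 fold change was -4.64 (SE 0.73, adjusted p = 1.27e-09). SRB6 (YBR253W), the other member of the pair, had 6.13, 5.02 and 7.83 scaled labelled reads with IAA against 17.9, 15.2 and 19.8 with DMSO. This was the smallest fall of the head, -1.48 (0.20 when scaled to other S. cerevisiae genes; SE 0.45, adjusted p = 0.00167), with separate groups. SRB4, the head's scaffold, fell by 2.89 and SRB5, part of its movable jaw, by 1.99. MED6 had only 2 labelled reads with IAA and 16 with DMSO, 14 of the 16 in replicate C, for a pooled ratio of 0.0965 (counting interval 0.0108 to 0.410). The MED6 call was lost without RDY73 DMSO replicate C (-0.91), and that of MED8 without RDY73 IAA replicate B (-1.59).

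The middle module, the connector between head and tail, had the lowest median of the Mediator modules, -2.83 over 9 genes. NUT2 (YPR168W, chromosome XVI, 878076 to 878549, plus strand) had 0, 0 and 2 labelled reads with IAA, against 14, 7 and 19 with DMSO. As for MED11, the gene was almost without labelled reads after IAA. Its pooled ratio was 0.0386 (counting interval 0.00452 to 0.149), and the fitted log2 fold change was -4.42 (SE 0.74, adjusted p = 1.34e-08). SRB7 (YDR308C), part of the hinge with Med7, had 3.06, 3.34 and 2.61 scaled labelled reads with IAA against 13.7, 10.7 and 18.8 with DMSO. Its log2 fold change of -2.24 (SE 0.56, adjusted p = 0.000111) was the least negative of the module, and the groups were separate. SOH1 (YGL127C) had 6.13, 2.51 and 6.09 with IAA against 22.1, 59.4 and 28.1 with DMSO. It fell by 2.83 (SE 0.41, adjusted p = 5.14e-11) with no overlap. RGR1, the backbone that holds the modules together, fell by 2.42. The other middle genes were MED4 (-3.10), ROX3 (-3.03), CSE2 (-2.94), MED7 (-2.61) and MED1 (-2.31). Each of these calls held without any 1 of the RDY73 DMSO and IAA libraries.

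The tail genes, which receive activators, fell least within Mediator: the median was -1.72 over 5 genes, and all 5 tail values (-2.06 to -1.42) lay above all 9 middle values (-4.42 to -2.24). That order is a description, since no test between the modules was made. GAL11 (YOL051W), the target of Gcn4 and Gal4, had 5.11, 5.85 and 10.4 scaled labelled reads with IAA against 20.0, 41.1 and 32.3 with DMSO, and fell by 2.06 (SE 0.39, adjusted p = 3.42e-07). SIN4 (YNL236W) had 5.11, 2.51 and 2.61 with IAA against 5.26, 13.7 and 9.38 with DMSO. IAA replicate A reached nearly the lowest DMSO library, and SIN4 had the weakest test of the 37 (-1.42, and 0.26 when scaled to other S. cerevisiae genes; SE 0.61, adjusted p = 0.0256). Its call was lost without RDY73 DMSO replicate B (-1.11) or C (-1.39), or without RDY73 IAA replicate B (-1.24) or C (-1.27). MED2, with 56 labelled reads with IAA and 152 with DMSO, fell by 1.81 (SE 0.28). PGD1, its partner, fell by 1.72, and NUT1 by 1.46 (0.24 when scaled to other S. cerevisiae genes).

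In the kinase module, SSN3 (YPL042C), the cyclin-dependent kinase, had 2.04, 3.34 and 4.35 scaled labelled reads with IAA against 14.7, 15.2 and 9.38 with DMSO. It fell by 1.93 (SE 0.55, adjusted p = 0.000755), with separate groups. SSN2 (YDR443C) had 0, 0 and 2 labelled reads with IAA against 4, 4 and 6 with DMSO. The groups were separate on these few reads, with a pooled ratio of 0.110 (counting interval 0.0122 to 0.480) and a fitted log2 fold change of -2.95 (SE 0.99, adjusted p = 0.00405). Over all libraries together, 8.19% of the SSN2 reads mapped to more than 1 place, the highest share of any member. SRB8 fell by 2.72, and its call was lost without RDY73 DMSO replicate C (-1.42), which held 25 of its 33 labelled DMSO reads. SSN8, the cyclin, had 6 labelled reads with IAA and 1 with DMSO, too few for a test, at a pooled ratio of 4.63 (counting interval 0.562 to 213).

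**Figure D2:**
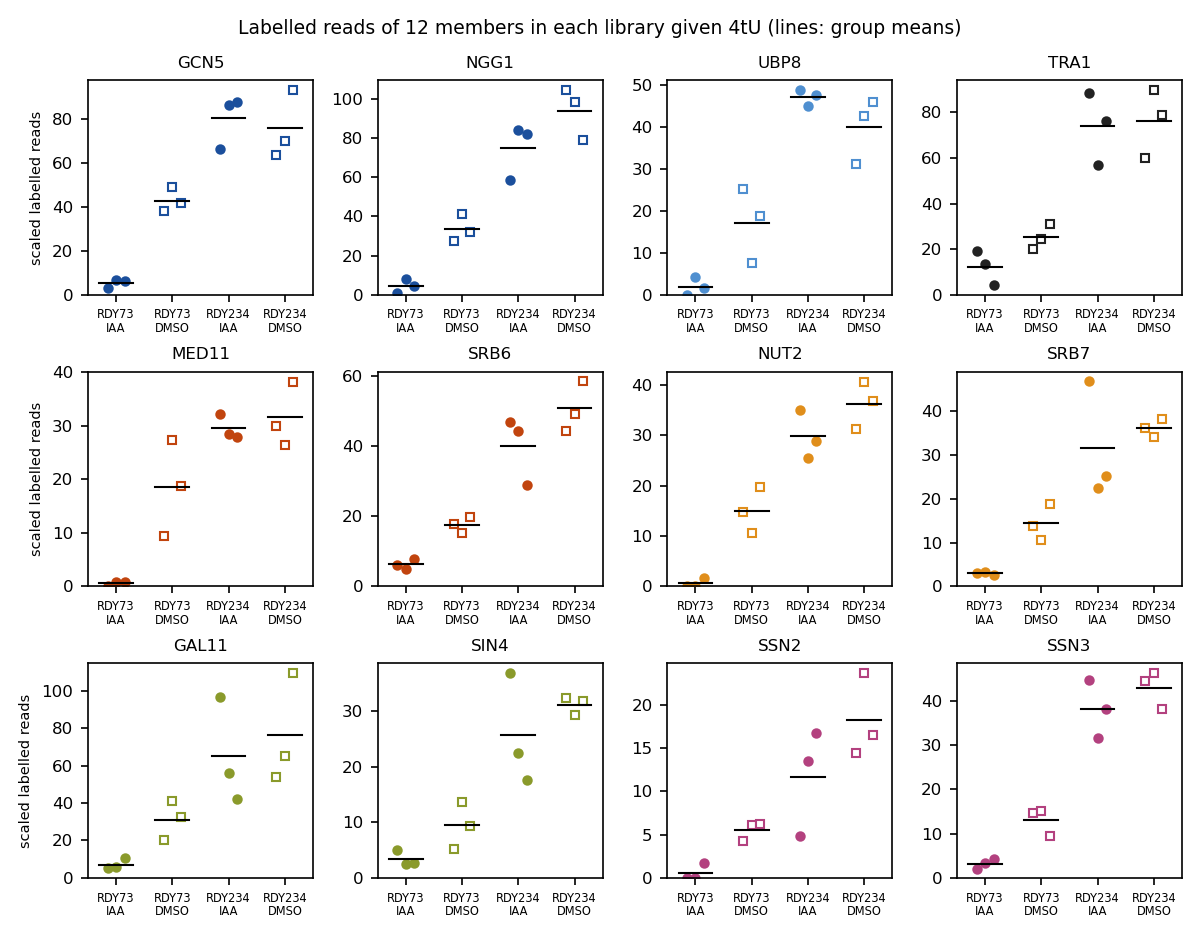
Scaled labelled reads of 12 members in each of the 12 libraries given 4tU (points; circles for IAA, squares for DMSO; black lines are group means; each panel has its own linear axis from 0). MED11 and NUT2 lie at or near 0 in RDY73 with IAA, TRA1 shows the closest RDY73 groups, and in RDY234 the IAA and DMSO libraries cover similar ranges.

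The S. pombe scaling sets the direction for nearly the whole transcriptome, so the members were also set against other S. cerevisiae genes with TMM scaling, which moved the median of all tested genes to -0.29. With this scaling 5 members were called lower and 0 higher, against 11.5% and 16.3% of all genes, where each value was tested against no change and not against that median. These were GCN5 (-1.26, adjusted p = 0.00859), NGG1 (-1.07, adjusted p = 0.0434), MED11 (-3.12, adjusted p = 0.00176), NUT2 (-2.93, adjusted p = 0.00448) and SOH1 (-1.13, adjusted p = 0.0353), by edgeR. Under this scaling ADA2, TRA1, SRB6, SIN4 and NUT1 had positive values, from 0.06 to 0.64, with none called. The members' median was -0.83.

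In RDY234, which keeps untagged Bdf1, 0 of the 37 tested members were called with IAA, as against 0.0385% of all genes. None had an unadjusted p below 0.05 in edgeR, against 245 of 5195 genes, and DESeq2 called 0 as well. The members' log2 fold changes lay between -0.63 for SSN2 and 0.28 for MED1, with a median of -0.21, and the median of all genes was -0.12. GCN5 had 66.2, 86.3 and 87.6 scaled labelled reads in RDY234 IAA libraries, against 63.6, 70.0 and 93.0 in RDY234 DMSO libraries. MED11 had 32.1, 28.5 and 27.9 with IAA against 30.0, 26.5 and 38.2 with DMSO, and NUT2 had 35.1, 25.5 and 28.9 against 31.2, 40.7 and 36.9. For GCN5 and MED11 the groups overlapped fully, and for NUT2 in part, with log2 fold changes of 0.09 (SE 0.24), -0.09 (SE 0.35) and -0.30 (SE 0.34).

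The IAA effect on new RNA differed between the strains. By edgeR's test of the interaction, 34 of 37 members had a lower effect in RDY73 than in RDY234, against 74.2% of all genes. Some of the 34, SPT8 and SRB5 among them, had at most 9 labelled reads in any RDY73 library. They passed the filter only through RDY234, where they were higher, so their calls add nothing to the count. The median difference was -2.34 for members and -1.82 for all genes. It was largest for MED11 (-4.55, SE 0.84, adjusted p = 7.02e-07) and NUT2 (-4.12, SE 0.85, adjusted p = 8.51e-06), and then for UBP8 (-3.26) and GCN5 (-3.04, SE 0.46, adjusted p = 1.03e-09). The 3 that missed the threshold were MED8 (-1.57), SIN4 (-1.13) and SSN2 (-2.31). SSN2 was called without any 1 of RDY73 DMSO A, RDY73 IAA C, RDY234 DMSO B or RDY234 IAA A (-4.83 to -2.49). The differences of TRA1 (-0.99, adjusted p = 0.0312) and SRB6 (-1.14, adjusted p = 0.0485) were called, but turned positive when scaled to other S. cerevisiae genes (0.58 and 0.40). TRA1 was lost without any 1 of RDY73 DMSO C, RDY73 IAA C, RDY234 DMSO A or RDY234 IAA A, and SRB6 without any 1 of 8 libraries (RDY73 DMSO A and C, RDY73 IAA A and B, RDY234 DMSO A and B, RDY234 IAA A and B). ADA2 was lost without RDY73 DMSO B, RDY73 IAA A or C, RDY234 DMSO C or RDY234 IAA C, HFI1 without RDY73 DMSO C, RDY73 IAA A or B or RDY234 IAA B, and SGF11 without RDY73 DMSO A.

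Total RNA of the members fell as well, by less in the median but not in every member. In RDY73, 38 of 39 members were lower with IAA than with DMSO and 0 higher, against 77.9% and 1.16% of all tested genes. The median log2 fold change was -1.46 for the members and -1.24 for all genes. The IAA libraries lay below the DMSO libraries for 38 of 39 members, as for 77.8% of all genes. Middle genes had the lowest median of the Mediator modules (-1.82) and the kinase genes the highest (-0.85, and 0.29 when scaled to other S. cerevisiae genes), with the head at -1.29 and the tail at -1.25.

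CSE2 (YNR010W, chromosome XIV, 643744 to 644193, plus strand), a small middle subunit, had the largest fall in total RNA. It had 8.93, 20.4 and 17.8 scaled total reads with IAA, against 123, 101 and 106 with DMSO. Its log2 fold change was -2.78 (SE 0.25, adjusted p = 3.18e-13), beside -2.94 in new RNA. UBP8, SRB7 and HFI1 followed at -2.28, -2.28 and -2.27, then SPT8 at -2.26 and MED11 at -2.25. HFI1 and SRB7 did not fall by less in total RNA, with -1.92 and -2.24 in new RNA. At the other end TRA1 had 281, 346 and 238 with IAA against 401, 479 and 472 with DMSO. The TRA1 groups were separate, at -0.64 (SE 0.14, adjusted p = 5.8e-05). SRB8 (-0.80) and SSN2 (-0.89) fell by less in total RNA than SSN3 (-1.40), and both had positive values when scaled to other S. cerevisiae genes. SRB2, which could not be tested in new RNA, had 81.3, 46.7 and 60 with IAA against 140, 130 and 135 with DMSO, and fell by 1.12 (0.03 when scaled to other S. cerevisiae genes; SE 0.18, adjusted p = 3.47e-07). The 1 member not called was SSN8, with 2 to 11 total reads in each RDY73 library given 4tU (log2 fold change 0.53, SE 0.62, adjusted p = 0.437).

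With TMM scaling over S. cerevisiae genes, which put the median of all genes at -0.10, 17 members were lower and 3 higher in total RNA, against 30.8% and 29.6% of all genes. Those lower included 7 of the 9 middle genes: CSE2 (-1.65), SRB7 (-1.13), MED7 (-1.02), MED4 (-0.73), NUT2 (-0.67), SOH1 (-0.67) and ROX3 (-0.51). The higher ones were TRA1 (0.50, adjusted p = 0.000559), SRB8 (0.33, adjusted p = 0.0335) and SSN8 (1.67, adjusted p = 0.0201). The SSN8 value rests on very few reads, 13 in all over the RDY73 DMSO libraries. In RDY234 total RNA, 0 of 39 members were called with IAA (0.0328% of all genes). SGF11 alone had an unadjusted p below 0.05 in edgeR (-0.51), against 482 of 6100 genes, and DESeq2 called 0. The test of the difference between strains was passed by 37 of 39 members, against 69.4% of genes, all but SSN2 (-0.57, adjusted p = 0.0677) and SSN8 (0.64).

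**Figure D3:**
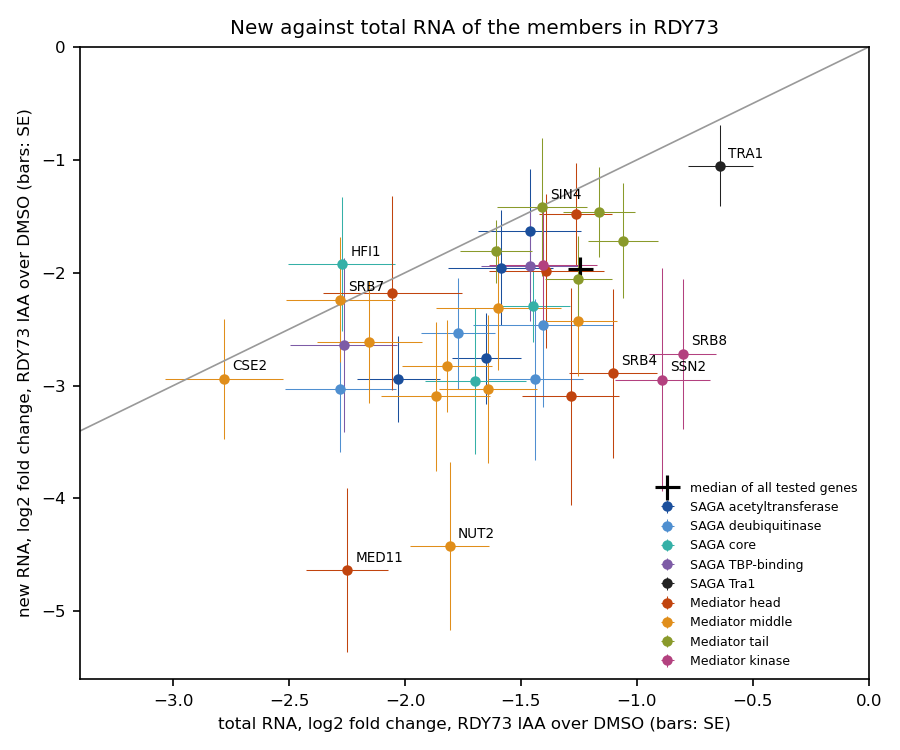
Log2 fold change of new RNA (vertical axis) against that of total RNA (horizontal axis) in RDY73, IAA over DMSO, for the 37 members tested in both; bars show SE, colours give the module, the line marks equal values and the cross the medians of all tested genes. Most members lie below the line, MED11 and NUT2 farthest, while CSE2, SRB7 and SIN4 are among those on or near it.

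The labelled share, the part of a gene's reads that carry at least 2 conversions, sets new RNA against the RNA already present in the same library. Pooled over 3 libraries, its median over the members was 7% for RDY73 IAA and 10.9% for RDY73 DMSO, then 17.5% for RDY234 IAA and 18.7% for RDY234 DMSO. The medians of all genes were 5.62%, 9.66%, 15.5% and 15.6% in the same order. In an edgeR model of labelled against unlabelled reads within each library, 5 of 37 members had a lower share with IAA in RDY73, against 26.3% of genes. They were NUT2 (-2.99, adjusted p = 0.00657), MED11 (-2.73, adjusted p = 0.0161), SRB8 (-1.99, adjusted p = 0.0228), NGG1 (-1.26, adjusted p = 0.028) and SPT7 (-0.96, adjusted p = 0.0298). The median over members was -0.90 and over all genes -0.78. With each library scaled by its own summed S. cerevisiae labelled and unlabelled reads, in place of the S. pombe sums, none of these 5 calls was left. The share of all genes called lower was then 1.04%, and the members' median was -0.10.

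The labelled share of NUT2 was 0%, 0% and 3.57% in RDY73 IAA libraries, against 8.86%, 5.98% and 11.2% in RDY73 DMSO libraries. That of MED11 was 0%, 1.43% and 1.59% with IAA against 3.73%, 11.7% and 7.47% with DMSO, and that of NGG1 1.32%, 7.41% and 4.72% against 9.77%, 12% and 10.7%. In these 3 genes each IAA library was below each DMSO library. SPT7 had 3.92%, 9.38% and 7.63% with IAA against 14.0%, 14.8% and 9.67% with DMSO, narrowly separate, and SRB8 overlapped (2.78%, 1.02% and 0% against 1.10%, 3.11% and 7.91%). Each of the 5 calls was lost without some library. NUT2 was lost without RDY73 IAA B, MED11 without RDY73 DMSO B or IAA B, NGG1 without RDY73 DMSO B or C or IAA A or C, SPT7 without RDY73 DMSO A or B or IAA A, and SRB8 without RDY73 DMSO C or IAA B or C. In RDY234 0 of 37 members were called in labelled share (0.0192% of genes), with none at an unadjusted p below 0.05 in edgeR, against 108 of 5195 genes.

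SRB2 (YHR041C, chromosome VIII, 189131 to 189864, minus strand), a head subunit, had the lowest labelled share of the members in all 4 groups given 4tU. In the RDY73 DMSO libraries 3 of its 364 reads were labelled (0.824%, exact 95% binomial interval 0.170% to 2.39%), and in the RDY234 DMSO libraries 12 of 424 (2.83%, interval 1.47% to 4.89%). The next lowest were SRB8 at 4.40% in RDY73 and NUT2 at 6.84% in RDY234. The window of SRB2 overlaps that of YHR040W on the other strand, as do the windows of 18 other members with their own neighbours, and its part in the low share was not tested. Without 4tU the 39 members held 11 to 48 labelled reads per library in all, which is the background of conversions. Intervals of this kind cover counting error alone.

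The label itself was checked in total RNA. Between DMSO with 4tU and the control without it, 0 of 39 members were called in RDY73 (0.656% of all genes) and 0 in RDY234 (0.574% of all genes). At an unadjusted p below 0.05 edgeR listed 1 in RDY73, SSN8 (-1.53), and 3 in RDY234, MED8 (0.79), SRB7 (0.42) and NUT2 (0.28). Of all 6100 tested genes, 367 in RDY73 and 436 in RDY234 passed the same unadjusted threshold, so the members listed are not set apart by it. DESeq2 called 0 with S. pombe scaling in both strains, and MED8 alone in RDY234 with its own size factors (0.80, adjusted p = 0.0271).

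The strains differed before any IAA. In total RNA of the untreated controls, 33 of 39 members were lower in RDY73 than in RDY234 and 1 was higher, against 77.5% and 2.21% of all genes, with a median of -0.67 for members and -0.68 for all genes. New RNA in DMSO was lower in RDY73 for 33 of 37 members, against 79.5% of genes (median -1.34 for members and -1.13 for all genes), with NGG1 (-1.51, adjusted p = 1.81e-07), TRA1 (-1.60, adjusted p = 2.61e-07) and SPT7 (-1.28, adjusted p = 4.08e-07) at the lowest adjusted p. Several of those called, SPT8, SRB5, MED8, SSN2 and SIN4 among them, had at most 9 labelled reads in any RDY73 library. They passed the filter only through RDY234, where they were higher, so their calls add nothing to the count. For NGG1 the RDY73 DMSO libraries had 27.4, 41.1 and 32.3 scaled labelled reads, against 104, 98.4 and 79 in RDY234 DMSO libraries. For TRA1 they had 20.0, 24.4 and 31.3, against 60, 89.9 and 79 in RDY234, and for SPT7 47.4, 63.9 and 42.7, against 125, 149 and 91.7 in RDY234. In these 3 genes the strains did not overlap. The 4 not called were SGF11, MED11, CSE2 and SRB8. With TMM scaling over S. cerevisiae genes none of the 37 was called in new RNA, against 2.95% of genes called lower, 26 had a negative value, 1 had an unadjusted p below 0.05, and DESeq2's size factors also gave 0.

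A few members departed from this shared shift. PGD1 (YGL025C, chromosome VII, 448764 to 449957, minus strand), a tail subunit, had 228, 235 and 257 scaled total reads in RDY73 controls, against 629, 651 and 630 in RDY234 controls (-1.41, SE 0.14, adjusted p = 1.22e-10). NUT2 had 190, 161 and 208 in RDY73 controls against 413, 480 and 526 in RDY234 controls (-1.34, SE 0.14, adjusted p = 3.22e-10). In both genes all RDY73 controls were far below all RDY234 controls. RGR1, with the next lowest adjusted p, had 133, 139 and 149 in RDY73 controls against 269, 268 and 243 in RDY234 controls (-0.89, adjusted p = 1.83e-06), a shift within the range of other members that was not called with TMM scaling over S. cerevisiae genes (-0.23, adjusted p = 0.18). The window of PGD1 overlaps those of TRP5 and PIB2 by up to 22 bases, and that of NUT2 overlaps JIP5 by 110 bases. JIP5 (-1.15), TRP5 (-1.01) and PIB2 (-0.88) were also lower in RDY73, and their part was not tested. SRB8 (YCR081W, chromosome III, 254371 to 258654, plus strand), of the kinase module, went the other way, with 319, 280 and 288 in RDY73 controls against 229, 207 and 231 in RDY234 controls (0.41, SE 0.14, adjusted p = 0.0087). Every RDY73 control of SRB8 exceeded every RDY234 control. The window of SRB8 overlaps those of PTC6 and AHC2, by up to 53 bases. PTC6 was lower in RDY73 controls (-0.72) and AHC2 was not called (-0.08), and their part was not tested.

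With TMM scaling over S. cerevisiae genes the number of members with a negative value was 19 of 39, against 38 with S. pombe scaling, and all 7 head genes turned positive without a call. Of the 39, 2 were lower in RDY73 controls, PGD1 (-0.75, adjusted p = 3.63e-05) and NUT2 (-0.70, adjusted p = 0.000383), against 9.21% of genes. Another 3 were higher, against 14.3% of genes, SRB8 (1.06, adjusted p = 2.29e-07), CSE2 (0.62, adjusted p = 0.00734) and SPT3 (0.45, adjusted p = 0.0447). CSE2 and SPT3 had negative values with S. pombe scaling, -0.04 and -0.20, which were not called. CSE2 had 91.8, 94.3 and 112 scaled total reads in RDY73 controls against 119, 96.3 and 91.5 in RDY234 controls, which overlapped.

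**Figure D4:**
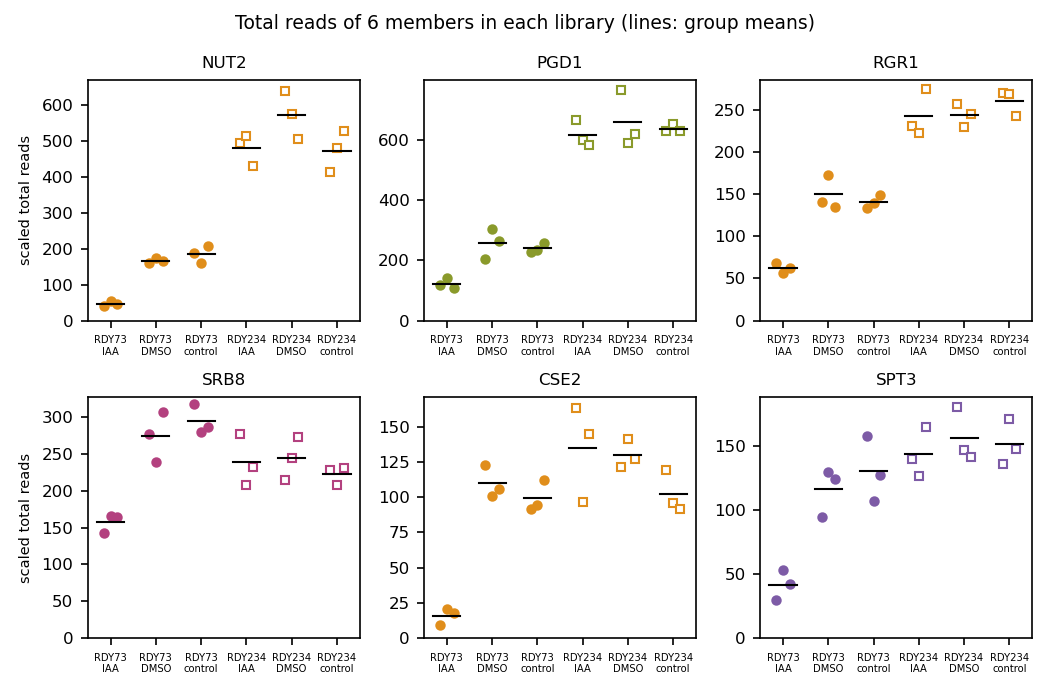
Scaled total reads of 6 members in all 18 libraries (points, filled circles for RDY73 and open squares for RDY234; black lines are group means; linear axes from 0). NUT2, PGD1 and RGR1 are lower in RDY73 than in RDY234 in each treatment, SRB8 is higher in the RDY73 controls than in the RDY234 controls, and CSE2 and SPT3 overlap between the strains in the controls; all 6 fell with IAA in RDY73, of which PGD1 and SRB8 turned positive when scaled to other S. cerevisiae genes.

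Genes of related complexes were read in the same fits, where 83.9% of all genes were lower in new RNA and 77.9% in total RNA. In new RNA of RDY73 with IAA, all 5 TAFs shared by SAGA and TFIID fell (median -2.33), as did all 9 TFIID TAFs not shared with SAGA (-2.50). All 11 other NuA4 genes (-2.33) and all 4 other TREX-2 genes (-2.40) fell too. So did the 3 additions of the ADA and SLIK forms, AHC1, AHC2 and RTG2 (-1.22, and 0.50 when scaled to other S. cerevisiae genes). Under that scaling 0 of the 5 shared TAFs, 1 of the 9 TFIID TAFs, 3 of the 11 NuA4 genes and 2 of the 4 TREX-2 genes were called lower, against 11.5% of all genes, and none of them higher. TBP itself, SPT15, fell by 1.59 (adjusted p = 1.78e-10) and its remover MOT1 by 0.70 (adjusted p = 0.00213). When scaled to other S. cerevisiae genes these 2 and the NC2 genes had positive values, with a median of 1.30 and 3 of the 4 called higher, against 16.3% of all genes. With S. pombe scaling the subunits of the TBP repressor NC2 were not called, BUR6 at -0.02 (adjusted p = 0.96) and NCB2 at -0.09 (adjusted p = 0.782). In total RNA the shared TAFs, the TFIID TAFs, NuA4, TREX-2 and the ADA and SLIK genes were again all lower (medians -1.68, -1.60, -1.58, -1.72 and -1.20), SPT15 was lower (-0.82) and BUR6 higher (0.42, adjusted p = 0.00284) by edgeR. When total RNA was scaled to other S. cerevisiae genes, 3 of the 5 shared TAFs, 6 of the 9 TFIID TAFs, 7 of the 11 NuA4 genes, 3 of the 4 TREX-2 genes and 1 of the 3 ADA and SLIK genes were called lower, against 30.8% of genes. All 4 genes of the TBP list, SPT15 included, and 1 ADA and SLIK gene were then called higher, against 29.6% of genes.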

How the data were processed

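SLAM-seq reads of 18 libraries were processed by the authors with fastp 0.23.2 and SLAM-DUNK 0.4.3 against R64 and ASM294v2, per the submitters' processing notes. The deposited tables hold raw counts per gene window (all reads, and reads with at least 1 or at least 2 T-to-C conversions), per the file headers. Each window runs from the start codon to 250 bases past the gene. The sources used here do not give mapping settings.

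Groups came from the labels. Counts were tested with edgeR 4.0.16 in R 4.3.3 (quasi-likelihood F test, Benjamini-Hochberg, threshold 0.05) after a filter of at least 10 reads in at least 3 libraries, with S. pombe sums of the same kind of read as library sizes: new RNA over 12 libraries, total RNA over 18. The labelled share was modelled with labelled and unlabelled reads of each library together. Scripts were tested on simulated data. DESeq2 1.42.0, TMM scaling, other filters, a replicate block and leaving out each library of the groups compared were alternatives. Replicate letters did not pair samples. The members, modules and lists were chosen with earlier results of these data known. Members given in full were, in each module, those with the most and the least negative fold change of new RNA in RDY73, those called with relative scaling, those not passing a test, and the 3 lowest adjusted p between strains. Others are named by their place in a count, after their values were seen. Upstream sequence is RefSeq R64.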

Additional observations from a re-analysis of the deposited data

Results flagged for a closer look

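The effect of IAA differed between the strains by the test of the difference itself (edgeR), for 34 members in new RNA and 37 in total RNA. In new RNA some members, SPT8 among them, passed the filter of labelled reads only through the RDY234 libraries, where they were higher. In new RNA the difference in log2 fold change, RDY73 minus RDY234, was -3.04 for GCN5, -1.51 for ADA2, -2.43 for NGG1, -3.26 for UBP8, -2.30 for SGF11, -2.95 for SPT20, -1.66 for HFI1, -2.41 for SPT8, -1.77 for SPT3 and -0.99 for TRA1 among the SAGA genes. Among the Mediator genes it was -4.55 for MED11, -1.14 for SRB6, -4.12 for NUT2, -2.03 for SRB7, -2.72 for SOH1, -1.83 for GAL11 and -1.75 for SSN3. These genes moved with most of the transcriptome, since 74.2% of all tested genes passed the same test. Of these, the differences of ADA2, TRA1 and SRB6 turned positive when scaled to other S. cerevisiae genes.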

How the results depend on the processing

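The scaling decided most counts. With TMM over S. cerevisiae genes, and with DESeq2's median-of-ratios factors, the members called lower were 5 and 4 for new RNA in RDY73, 4 and 2 for its difference between strains, 17 and 16 for total RNA in RDY73, and 14 and 12 for its difference between strains. With TMM, 11.5% of all tested genes were called lower for new RNA in RDY73 and 30.8% for total RNA. For the differences between strains, 347 of 5195 and 1274 of 6100 genes were called lower. The shares of all genes for the DESeq2 factors, for at least 1 conversion and for fits without 1 library are not given here. TMM also called 3 members higher in total RNA and 1 in its difference (TRA1, 0.50), against 29.6% of genes and 1407 of 6100 genes. Calls in either direction were 5 and 5 between the controls and 0 and 0 between the DMSO groups. The 4tU comparison in RDY234 gave 1 with the second. Comparing the 2 RDY73 groups alone gave 15 for new RNA, since 15 members then passed the filter. The labelled share gave 0 when scaled by summed S. cerevisiae reads, 13 with at least 1 conversion, and 2 to 7 without 1 library of the RDY73 DMSO and IAA groups.

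Signs turned under the same 2 scalings, and not every member that turned is listed. For new RNA in RDY73 the values were 0.057 and 0.059 for ADA2, 0.64 and 0.67 for TRA1, 0.20 and 0.21 for SRB6, 0.26 and 0.27 for SIN4, and 0.24 and 0.24 for NUT1. For the difference between strains they were 0.057 and 0.043 for ADA2, 0.58 and 0.59 for TRA1, 0.40 and 0.39 for SRB6, and 0.41 and 0.40 for SIN4, and NUT1 was 0.063 with TMM. For total RNA in RDY73 they were 0.50 and 0.59 for TRA1, 0.042 and 0.13 for SRB4, 0.029 and 0.13 for SRB2, 0.087 and 0.18 for PGD1, 0.33 and 0.42 for SRB8, and 0.25 and 0.34 for SSN2, with NUT1 at 0.072 under DESeq2. With TMM the negative members were 32 of 39 for the difference in total RNA, 19 of 39 between the controls and 26 of 37 between the DMSO groups, against 38, 38 and 37 with S. pombe scaling. Between the controls the values were 0.45 and 0.46 for SPT3 and 0.62 and 0.63 for CSE2, and CSE2 was 0.099 with TMM over S. pombe genes and between -0.14 and 0.084 without 1 library. The cause was not tested.

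With the replicate block the counts were 37, 32, 38, 37, 33 and 33 for new RNA, its difference between strains, total RNA, its difference, the controls and the DMSO groups. The shares of all genes with the block are not given here. The letters did not pair samples: same-letter correlations lay between -0.039 and 0.028 in new RNA, with 0 of 18 over 0.1, and between -0.10 and 0.14 in total RNA. Without 1 library at a time of the RDY73 DMSO and IAA groups, 33 to 37 members stayed lower in new RNA of RDY73 and 38 in total RNA. Depth limits members with few labelled reads. A fall in RDY234 or a change in labelled share could go uncalled even where it was larger than the standard error.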
